A study of Mus musculus with 11 samples.

Results

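Interferon-stimulated and antigen presentation genes were examined in embryonic mouse forebrain with and without Kif20a, which encodes a kinesin motor of the central spindle that acts in cell division. The members are 48 interferon-inducible genes chosen by symbol, and 47 of them were present among the 20475 genes of each expression table. Mx1 is not analysed here. Members were tested where they averaged 10 normalized counts or more across a table, which left 31 members of 13938 genes in the germline comparison and 40 members of 14081 genes in the inducible comparison. The members fall into 7 groups by role: sensors of foreign nucleic acid, transcription factors, antiviral effectors, the ISG15 system with ubiquitin ligases, PARP and nuclear body genes, interferon-inducible GTPases, and antigen presentation. Lgals3bp, neither a PARP nor a nuclear body gene, was placed with the PARP and nuclear body genes.

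RNA of E12.5 embryos was sequenced in 11 libraries. Germline loss was studied in 3 libraries of homozygous knockout-first embryos, in which a LacZ and neomycin cassette interrupts Kif20a, beside 3 of wild-type littermates. The knockout-first strain came from 1 embryonic stem cell clone and was crossed to C57BL/6J. The inducible comparison held 3 libraries of Nestin-CreERT2; Kif20a fl/fl embryos and 2 of Kif20a fl/fl littermates without Cre, which the labels call wild type. The dams received tamoxifen on 2 consecutive days of gestation before collection. Nestin drives the recombinase in neural progenitor cells, so cells of other lineages were not targeted by design. The labels name the tissue forebrain and the study's methods name cortex. The labels do not tie libraries to single embryos or litters, so P values measure only the spread between these libraries.

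Type I interferons bind the IFNAR receptor and act through the kinases JAK1 and TYK2 on a complex that holds STAT2 and IRF9 and binds the interferon-stimulated response element (ISRE) upstream of target genes. The targets detect viral RNA, degrade it, block its translation or mark proteins with ISG15. Interferon gamma raises the GTPases and the class I antigen presentation machinery most strongly, and in the brain microglia, endothelium and neural cells can all respond.

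The upstream sequences of the members were searched for the ISRE core, written as GAAA, any 2 bases, GAAA, on either strand, so that TTTC, any 2 bases, TTTC on the printed strand is the same motif. RefSeq windows on GRCm38.p6, covering 250 bases before to 50 bases after each gene's start, were found for 38 of the 48 members. The core was in 18 of these 38 members (47.4%) and in 1079 of 27025 genes with a window (3.99%). The GAS core, TTC, any 3 bases, GAA, was in 9 of the 38 members (23.7%) and in 2582 of the 27025 genes (9.55%). Dhx58, Zbp1, Oas2, Mx1, Mx2, Rtp4, Usp18, Parp9, Parp14 and Iigp1 had no window. The sequences below show the match nearest the start with up to 20 bases on each side, 5′ to 3′ on the gene's strand and upstream of the start, with the ISRE core in capitals. The first 7 belong to members that passed both thresholds in the inducible comparison, and the last 4 to members that did not.
Ifit1 (chr19:34640784-34640833, plus strand): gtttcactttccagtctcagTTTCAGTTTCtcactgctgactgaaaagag
Ifit3 (chr19:34583387-34583436, plus strand): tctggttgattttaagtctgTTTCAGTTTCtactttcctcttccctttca
Oas1a (chr5:120907526-120907559, minus strand): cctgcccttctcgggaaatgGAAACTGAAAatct
Gbp3 (chr3:142559985-142560034, plus strand): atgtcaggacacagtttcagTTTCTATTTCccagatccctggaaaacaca
Gbp7 (chr3:142530263-142530312, plus strand): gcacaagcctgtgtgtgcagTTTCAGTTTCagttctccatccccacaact
Irgm1 (chr11:48871421-48871464, minus strand): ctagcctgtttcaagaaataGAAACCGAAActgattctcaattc
Bst2 (chr8:71537567-71537616, minus strand): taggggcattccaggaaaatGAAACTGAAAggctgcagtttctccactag
Isg15 (chr4:156200855-156200904, minus strand): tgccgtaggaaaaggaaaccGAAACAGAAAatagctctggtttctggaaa
Igtp (chr11:58199502-58199551, plus strand): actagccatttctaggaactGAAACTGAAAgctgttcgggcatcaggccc
Stat2 (chr10:128270256-128270305, plus strand): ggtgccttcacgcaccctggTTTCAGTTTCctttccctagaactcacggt
B2m (chr2:122147528-122147577, plus strand): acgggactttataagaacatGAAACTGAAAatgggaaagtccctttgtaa

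All 5 interferon-inducible GTPases with a window held the core, and so did all 3 sensors with one. In the sensors Ifih1 and Ddx58, and in the effector Eif2ak2, the match was not wholly upstream of the start. Of the 6 antigen presentation genes, B2m alone held the core. Dtx3l, Sp100 and Lgals3bp, the 3 genes of the PARP and nuclear body group with a window, did not. Parp9 and Parp14 had no window and were not searched. A match is a description of the letters, and a gene without one may carry the element outside the window.

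Kif20a itself was lower in both comparisons, past both thresholds described below. Germline wild-type libraries held 2456, 2295 and 2680 normalized counts and the knockouts 409, 374 and 503. Inducible wild-type libraries held 4760 and 4844 and the knockouts 3125, 2915 and 2853, so much of the transcript remained. Library totals lay between 13048716 and 15551274 normalized counts in the germline table and between 24118520 and 24497307 in the inducible table. The tables were scaled separately, so levels are read within a table. Esr1, the estrogen receptor gene whose ligand-binding part CreERT2 carries, was at 142, 163 and 135 in the inducible knockouts and at most 0.987 in their wild type. Summed counts of 4 Y-linked genes were 1.96 and 4.24 in the inducible wild-type libraries and between 2389 and 3209 in the knockouts. Cre, loss of Kif20a and sex therefore cannot be told apart in that comparison.

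A member was counted as higher or lower at the study's thresholds, that is a 1.5-fold change or more with an unadjusted limma P of 0.05 or less on log2(normalized count + 1). Fold changes on that scale understate the change of genes with few counts. In the inducible knockouts 16 of the 40 members were higher, where 0.802% of all genes tested were, and 0 were lower, where 0.49% of all genes were. With limma P values adjusted by Benjamini-Hochberg across every gene in the fit, 0 members had an adjusted P under 0.05, the smallest being 0.669. The unadjusted threshold was reached by 17 of the 40 members and by 846 of all 14081 genes tested. Of the 40, 7 passed the filter only through their knockout values. Among the 33 with a wild-type mean of at least 10, 12 were higher. The median log2 fold change of the 40 members was 0.67, against -0.0019 over all genes tested, and 38 of them lay above 0, against 49.2% of all genes. Over the 33 members the median was 0.62, and 31 lay above 0.

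The 3 inducible knockouts differed among themselves more than the 2 wild-type libraries did. Taken by library, the median member stood 1.23 above the wild-type mean on the log2 scale in knockout replicate 1, against 0.50 for replicate 2 and 0.29 for replicate 3. Members at 2-fold or more over the wild-type mean numbered 24 of 40 in replicate 1, 13 for replicate 2 and 2 for replicate 3. Over all genes those shares were 0.632%, 0.739% and 0.895%, so by this count replicate 1 did not stand apart across all genes. Replicate 1 was the highest of the 5 libraries for 36 of the 40 members, where it was the highest for 22.7% of all genes. In 27 of the 40 members every knockout library exceeded every wild-type library, which held for 10.4% of all genes. Over the 33 members with a wild-type mean of at least 10, the library medians were 1.15, 0.44 and 0.23 for replicates 1, 2 and 3. Of these 33, 18, 8 and 0 stood at 2-fold or more in the same order. Replicate 1 was the highest library for 29 of them, and in 23 every knockout exceeded every wild-type library. The 16 counts as higher became 11 without knockout replicate 1, 8 when wild-type replicate 1 was left out and 7 when its counterpart, replicate 2, was. Without knockout replicate 1, Ifit1, Irf7, Lgals3bp, Samd9l and Trim25 no longer passed, with log2 fold changes of 1.31, 1.03, 0.49, 0.61 and 0.58. Gbp3, Ifit3, Oas1a and Parp14 were the 4 that stayed past both thresholds whichever of the 5 libraries was left out, and of these Parp14 alone did not owe its place in the test to high knockout values.

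**Figure D1:**
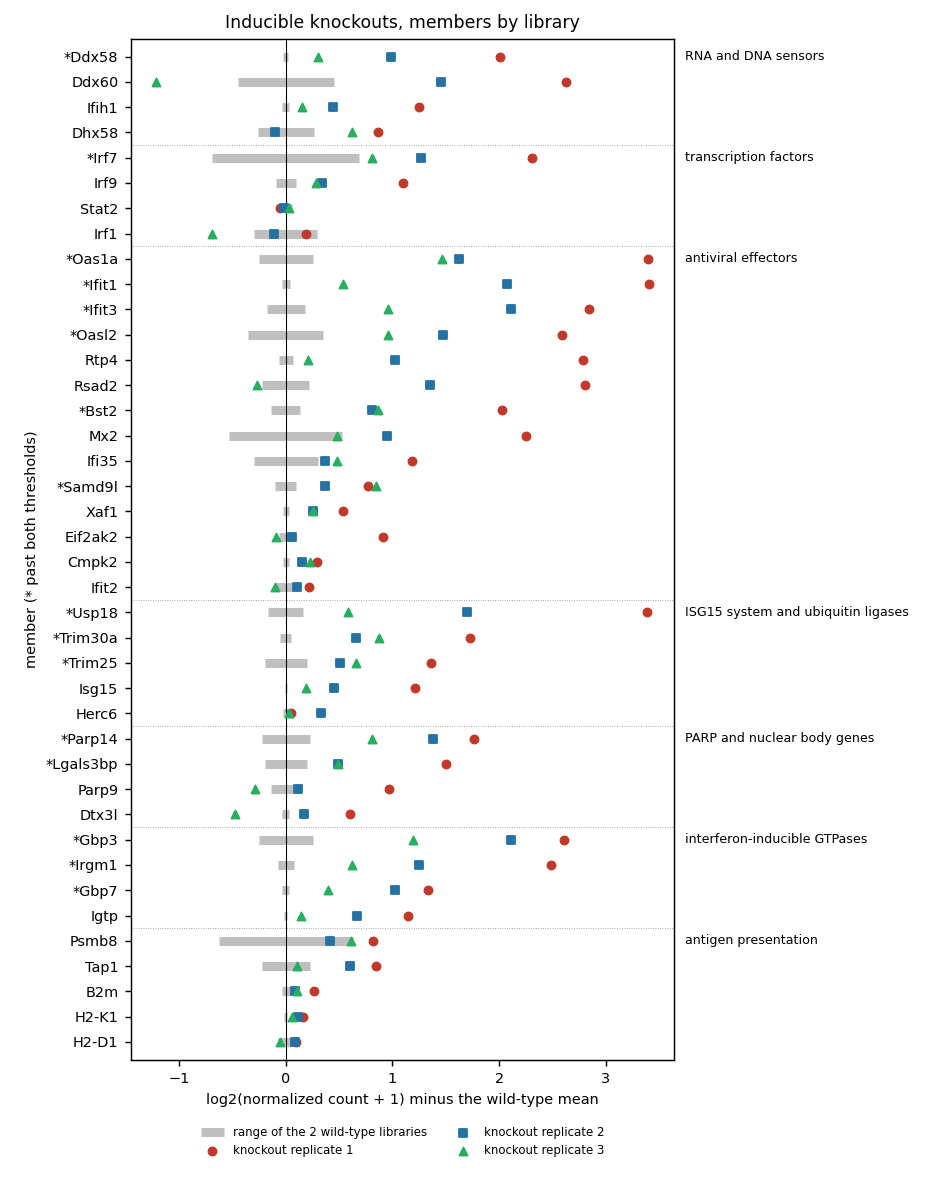
Each row is a member tested in the inducible comparison, grouped by role and marked with a star where it passed both thresholds. The horizontal axis gives log2(normalized count + 1) minus the mean of the 2 wild-type libraries, points are the 3 knockout libraries and grey bars span the wild-type libraries. Replicate 1 is the highest of all 5 libraries for 36 of the 40 members. With a wild-type mean of at least 10 required, it is the highest for 29 of 33. H2-K1, H2-D1 and B2m stay near 0.

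Of the sensors, Ddx58, which encodes the RNA helicase RIG-I, was the only 1 of 4 tested members past both thresholds. It held 102 and 99.1 normalized counts in wild-type tissue and 407, 201 and 124 in mutant tissue, a log2 fold change of 1.10 ± 0.43 (SE). Every knockout library lay above both wild-type libraries, with replicate 3 close to them. Ifih1, encoding the sensor MDA5, and Dhx58, encoding LGP2, had log2 fold changes of 0.61 and 0.46, and Ddx60, a helicase that assists RIG-I, of 0.96 with an SE of 1.04. Zbp1, a sensor of Z-form nucleic acid, was under the filter, between 0.975 and 8.79 normalized counts.

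Among the transcription factors, Irf7, the factor that amplifies type I interferon production, was 1 of 4 past both thresholds. Its wild-type libraries held 5.88 and 16.9 normalized counts and its knockouts 53.7, 25.6 and 18.4. The groups did not overlap, though wild-type replicate 2 and knockout replicate 3 were nearly level, and the log2 fold change was 1.46 ± 0.56 (SE). Irf9, the DNA-binding partner of STAT2, had a log2 fold change of 0.58 and an unadjusted P of 0.043 in limma, and missed the fold threshold. Stat2 was at 527 and 484 in wild-type tissue and at 486, 499 and 516 in mutant tissue, a log2 fold change of -0.01 with overlapping groups. Irf1, which responds to interferon gamma, had a log2 fold change of -0.20.

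Of the antiviral effectors, 6 of 14 tested members were higher. Oas1a, Ifit1 and Ifit3 passed the filter only through their knockout values, and among the 10 effectors with a wild-type mean of at least 10, 3 were higher. Oas1a, a synthetase of the 2-5A that activates RNase L, was at 4.92 and 7.42 normalized counts in wild-type tissue and at 73.3, 20.8 and 18.4 in mutant tissue. All 3 knockouts lay above both wild-type libraries and replicate 1 well above the others, with a log2 fold change of 2.16 ± 0.59 (SE). Ifit3, of the family that binds viral RNA and limits its translation, held 3.94 and 5.31 in wild-type tissue and 39.1, 23.04 and 9.86 in mutant tissue. Its log2 fold change was 1.97 ± 0.56 (SE), again without overlap. Ifit1 held 1.97 and 2.13 in the wild type, under the floor of 3 normalized counts, and 31.3, 11.9 and 3.44 in the knockouts. Against that floor its knockout mean was at least 5.18-fold higher, and replicate 3 barely exceeded it. Oasl2, a relative of the 2-5A synthetases, held 28.6 and 17.2 in wild-type tissue and 139, 63.3 and 44.2 in mutant tissue, a log2 fold change of 1.67 ± 0.47 (SE). Its lowest knockout lay above its highest wild-type library. Bst2, encoding tetherin, which holds budding virus at the cell surface, and Samd9l, an antiviral factor, were higher too, with log2 fold changes of 1.24 and 0.66. Samd9l was among the few in which replicate 1 was not the highest library.

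The 8 effectors tested that did not pass both thresholds had log2 fold changes between 0.07 and 1.34. Rsad2, encoding viperin, and Rtp4 were chosen here after their values were seen, because 1 library dominated them. Rsad2 held 17.8 and 12.9 normalized counts in wild-type tissue and 111, 40.2 and 12.4 in mutant tissue. Rtp4, an interferon-induced chaperone of receptors, held 30.6 and 27.8 in wild-type tissue and 207, 60.1 and 33.9 in mutant tissue. In both, replicate 1 stood far above the rest and replicate 3 was near the wild type, and neither passed. Eif2ak2, encoding the kinase PKR, Ifit2, Cmpk2, a mitochondrial nucleotide kinase, and Xaf1, which promotes cell death, were the least changed effectors, with log2 fold changes of 0.29, 0.07, 0.22 and 0.35. Mx2 and Ifi35 had values of 1.23 and 0.68. Oas2 and Ifi44 were under the filter, at 2.101 or fewer normalized counts in wild-type tissue and between 1.19 and 32.4 in the knockouts.

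**Figure D2:**
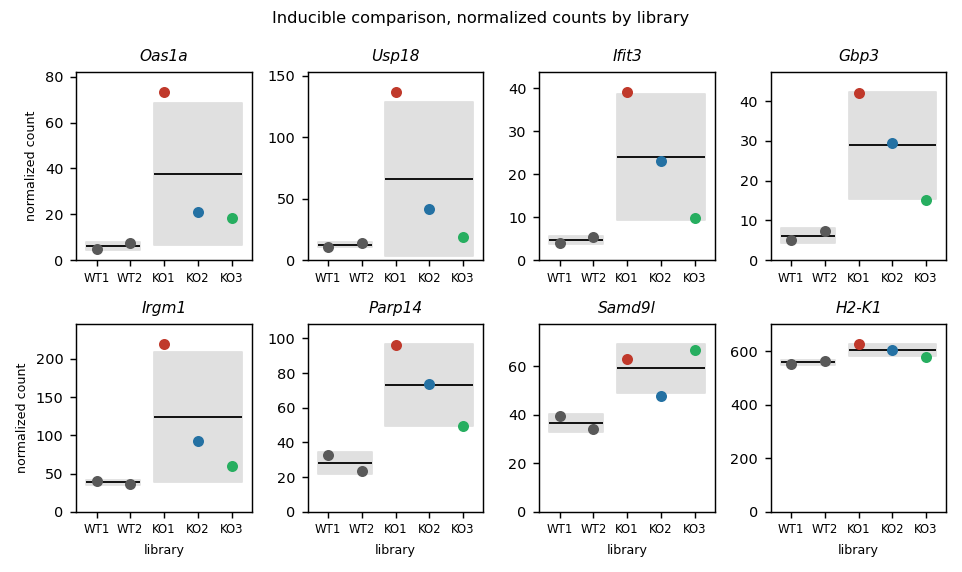
Normalized counts of 8 members in each library of the inducible comparison, 2 wild-type (WT, grey) and 3 knockout (KO, coloured); lines are group means and shading spans 1 SD, on axes that start at 0. Oas1a, Usp18, Ifit3, Gbp3 and Irgm1 are highest in KO1, Samd9l is highest in KO3, and H2-K1 lies between 553 and 627 in every library.

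In the ISG15 system, 3 of 5 members were higher. Usp18, the protease that removes ISG15 and dampens signalling at the receptor, held 10.8 and 13.8 normalized counts in wild-type tissue and 137, 41.9 and 18.8 in mutant tissue. Replicate 1 stood far above the other knockouts, all of which exceeded the wild type, and the log2 fold change was 1.89 ± 0.71 (SE). Trim30a, a TRIM protein, held 15.8 and 17.04 in wild-type tissue and 56.6, 26.4 and 30.9 in mutant tissue, a log2 fold change of 1.09 ± 0.35 (SE). Trim25, the ubiquitin ligase that activates RIG-I, held 201 and 153 in wild-type tissue and 452, 249 and 277 in mutant tissue, a log2 fold change of 0.84 ± 0.26 (SE). In both TRIM genes every knockout exceeded every wild-type library. Isg15, the ubiquitin-like modifier, was at 15.8 and 16.0 in wild-type tissue and at 38.1, 22.02 and 18.2 in mutant tissue. Its groups did not overlap, but it did not pass the P threshold, and Herc6, the ligase that attaches ISG15 in mice, had a log2 fold change of 0.14.

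In the group of PARP and nuclear body genes, in which Lgals3bp was also placed, 2 of 4 tested were higher, Parp14 and Lgals3bp. Parp14, a mono-ADP-ribosyltransferase, held 32.5 and 23.6 normalized counts in wild-type tissue and 96.4, 73.9 and 49.3 in mutant tissue. Its log2 fold change of 1.32 ± 0.31 (SE) stayed past both thresholds under all 13 alternatives. Lgals3bp, a secreted galectin ligand, held 42.4 and 32.1 in wild-type tissue and 106, 52.2 and 52.3 in mutant tissue, a log2 fold change of 0.83 ± 0.34 (SE). The remaining pair, Parp9 and its partner Dtx3l, had log2 fold changes of 0.26 and 0.10, and in both the third knockout library lay below the wild type. Sp100, a nuclear body protein, was under the filter, between 3.28 and 8.89.

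The interferon-inducible GTPases, which attack the membranes of intracellular pathogens, had 3 of 4 tested members higher. Gbp3 passed the filter only through its knockout values, and among the 3 with a wild-type mean of at least 10, 2 were higher. Gbp3 held 4.92 and 7.42 normalized counts in wild-type tissue and 42.0, 29.6 and 15.2 in mutant tissue, a log2 fold change of 1.97 ± 0.46 (SE). Irgm1 held 40.4 and 36.3 in wild-type tissue and 219, 92.7 and 59.3 in mutant tissue, a log2 fold change of 1.45 ± 0.48 (SE). Gbp7 held 31.5 and 33.0 in wild-type tissue and 82.8, 66.5 and 42.9 in mutant tissue, a log2 fold change of 0.92 ± 0.29 (SE). In all 3 every knockout lay above the wild type. Igtp was also above in every knockout, with a log2 fold change of 0.65 and no pass on P, and Gbp2 and Iigp1 were under the filter, between 0.0159 and 10.3. Gbp3 and Gbp7 lie within a cluster of related genes, as do Ifit1 with Ifit3, Oas1a and Trim30a, so the share of reads each member received from its relatives is uncertain.

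The antigen presentation genes included the most abundant members, and none passed in the inducible knockouts. Per kilobase of the longest coding transcript, B2m, the light chain of class I molecules, had the highest wild-type level of all members in both tables, 600 normalized counts per kilobase in the inducible and 490 in the germline table. H2-K1, H2-D1 and Eif2ak2 followed in both, with germline wild-type ranges of the heavy chains that overlapped. B2m held 503 and 530 normalized counts in inducible control tissue and 618, 547 and 556 in the knockouts, a log2 fold change of 0.15 ± 0.09 (SE). H2-K1, a class I heavy chain, held 553 and 565 in wild-type tissue and 627, 607 and 581 in mutant tissue, a log2 fold change of 0.11 ± 0.07 (SE). The knockouts of both genes lay just above the wild type. In this group 0 of 5 tested members passed, the others being H2-D1 at 0.04, Tap1, the peptide transporter, at 0.52, and Psmb8, an immunoproteasome subunit, at 0.61. Psmb9, the other immunoproteasome subunit measured, was under the filter, between 1.14 and 9.43.

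Members with the ISRE core were 9 of the 14 higher in the inducible knockouts that had a window (64.3%) and 8 of the 20 tested with a window that were not higher (40%). Ifit1, Ifit3, Oas1a and Gbp3, among the 9, entered the test only through their knockout values, and with a wild-type mean of at least 10 required the counts were 5 of 10 (50%) and 7 of 18 (38.9%). The core thus occurred among members of both kinds, and Stat2 and B2m, printed above, carried it at flat levels.

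Of 20 interferon ligand genes, 17 were listed at 0 in every inducible library and 16 in every germline library. Of 59 further interferon-inducible genes outside the members, 10 were higher and 0 lower in the inducible knockouts, where 0.802% and 0.49% of all genes were. They were Oas1g, Ifi204, Gbp10, Gbp6, Slfn2, Trim34a, Ifitm3, Parp10, Parp12 and Irgm2, with log2 fold changes between 1.01 and 2.41. Of all 113 genes higher in the inducible knockouts, the members made up 16.

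Markers of other cells were read beside the members. Summed counts of 20 microglia and macrophage markers were 1714 and 1952 in inducible control tissue and between 2003 and 2427 in the knockouts, highest in replicate 3, where the members were lowest. Their median log2 fold change was 0.28, and 0 of 20 passed both thresholds. Endothelial markers summed to between 5032 and 6710 in the wild type and between 5260 and 7361 in the knockouts, and lymphocyte markers to between 10.7 and 17.9 in all libraries, with 3 of 10 at 0 throughout. In bulk tissue, fewer cells of a type and less RNA per cell cannot be told apart. Of the 12 p53 target genes listed, 1 was higher at both thresholds in the inducible knockouts, where 0.802% of all genes were. That gene, Eda2r, had a log2 fold change of 1.13 and an adjusted P of 0.061 in limma. The median log2 fold change of the 12 was 0.19, and 11 lay above 0, against 49.2% of all genes. In 6 of the 12 every knockout exceeded every wild-type library, which held for 10.4% of all genes. Whether any of these bears on the members was not tested.

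**Figure D3:**
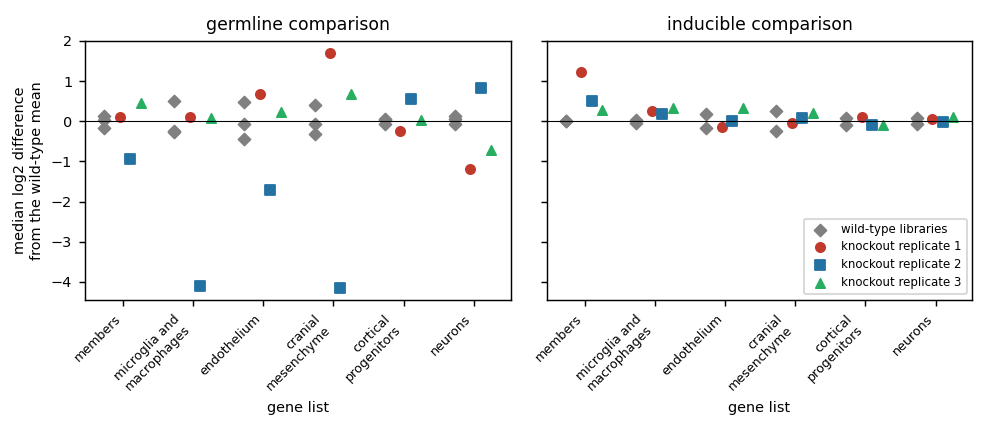
Median log2 difference from the wild-type mean over the members and over 5 lists of cell type markers, for every library of the germline (left) and inducible (right) comparison; grey diamonds are wild-type libraries and coloured points the 3 knockouts. In the inducible panel the members reach 1.23 in replicate 1 while the microglia markers reach 0.26, 0.18 and 0.32 in replicates 1, 2 and 3, and in the germline panel replicate 2 falls to -4.09 for microglia and -4.15 for mesenchyme markers.

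The germline knockouts gave another pattern. There 3 of 31 members were higher, where 2.07% of all genes were, and 0 were lower, where 0.667% of all genes were. The 3 were Tap1, H2-K1 and Stat2, and Tap1 passed the filter only through its knockout values. Among the 30 members with a wild-type mean of at least 10, 2 were higher. No member had an adjusted P under 0.05 in limma (0 of 31, smallest 0.779). The unadjusted threshold was reached by 3 of the 31 members and by 751 of all 13938 genes tested. The median log2 fold change of the members was -0.13, against -0.04 over all genes, and 11 of 31 lay above 0, against 44% of all genes. In the same 3 members every knockout exceeded every wild-type library, which held for 5.9% of all genes. In 0 members did every knockout lie below the wild type, which held for 7.55% of all genes.

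The median hid a split between the germline knockout libraries. The median member stood at 0.11 in replicate 1, at -0.94 in replicate 2 and at 0.46 in replicate 3, relative to the wild-type mean on the log2 scale. Replicate 2 was the lowest of the 6 libraries for 23 of 31 members, where it was the lowest for 30.5% of all genes, and 15 of 31 members were 2-fold or more under the wild-type mean in it, against 9.17% of all genes. Without replicate 2 the median over members was 0.33, and without replicate 3 it was -0.51. That library was also low in markers of non-neural cells. Microglia and macrophage markers summed to 59.9 in it and to between 1188 and 1977 in the other 5 libraries. Cranial mesenchyme markers summed to 705 in it, to between 5240 and 9238 in the wild type, to 22264 in knockout replicate 1 and to 11243 in replicate 3. Endothelial markers summed to 991, against 1903 to 4120, and erythroid markers to 23800, against 67754 to 116211. Neuronal markers summed to 98551 in it, to between 47166 and 56433 in the wild type, and to 23455 and 30643 in knockout replicates 1 and 3. All 3 knockouts thus lay outside the wild-type range for the cranial mesenchyme, erythroid and neuronal markers, replicate 2 on one side and replicates 1 and 3 on the other. For the microglia and macrophage and the endothelial markers, knockout replicate 3 lay within that range. The part of these differences in the members' levels was not tested.

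**Figure D4:**
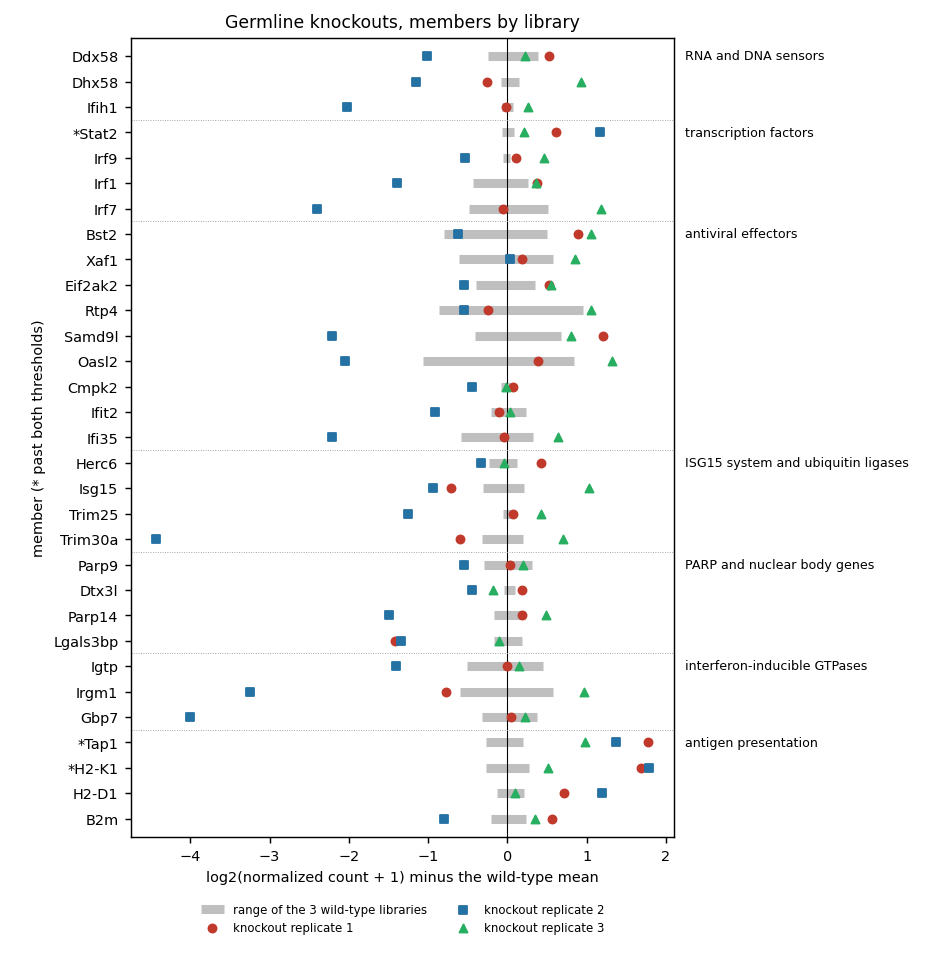
Each row is a member tested in the germline comparison, with log2(normalized count + 1) minus the wild-type mean on the horizontal axis, the 3 knockout libraries as points and the range of the 3 wild-type libraries as a grey bar. Replicate 2 is the lowest of the 3 knockouts for 26 of the 31 members, while for H2-K1, H2-D1 and Stat2 it lies farthest right.

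Antigen presentation held 2 of the 3 germline members past the thresholds, among 4 tested. With a wild-type mean of at least 10 required, which leaves out Tap1, 1 of 3 was higher. H2-K1 (NCBIM37, chr17:34132962-34137278, minus strand) held 117, 143 and 172 normalized counts in wild-type tissue and 460, 495 and 204 in mutant tissue. The lowest knockout exceeded the highest wild-type library, replicates 1 and 2 by far and replicate 3 narrowly. The log2 fold change was 1.33 ± 0.36 (SE), and it stayed past both thresholds under all 15 alternatives, including each left-out library. Tap1 (chr17:34324498-34334170, plus strand) held 7.54, 5.78 and 8.37 in wild-type tissue and 26.9, 20.1 and 15.1 in mutant tissue, a log2 fold change of 1.37 ± 0.45 (SE). It too showed no overlap, at low counts, and did not pass without wild-type replicate 2 (1.24) or without knockout replicate 1 (1.17). With the Y-linked level as a covariate, added after the data were seen, Tap1 (1.34) and Stat2 (0.52) did not pass and H2-K1 did.

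H2-D1 (chr17:35399675-35404444, plus strand), named after its values were seen, held 156, 162 and 197 in wild-type tissue and 281, 391.5 and 182 in mutant tissue. Replicate 3 lay within the wild type, and the log2 fold change of 0.67 had an unadjusted P of 0.057 in limma. B2m held 493, 363 and 407 in wild-type tissue and 618, 239 and 530 in mutant tissue, so that replicate 2 was the lowest library for the light chain and the highest for both heavy chains. Psmb8 and Psmb9 were under the filter, between 0.080 and 11.4. Further class I genes outside the members were higher too, with H2-T23 at 0.78, H2-Q6 at 1.17 and H2-Q7 at 1.24, all past both thresholds. H2-Q7 and H2-Q9 carried identical values in every library, so reads of these near-identical copies were not separated, and the same may hold in part for H2-K1 and H2-D1.

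Tap1 and both heavy chains lie in 1 interval of chromosome 17, so its other genes were read beside them. Of 43 tested genes in it that are neither members nor H2 genes, 0 were higher and 0 lower at the thresholds in the germline knockouts, where 2.07% and 0.667% of all genes were. Their median log2 fold change was 0.14 and 32 of the 43 lay above 0, against -0.04 and 44% over all genes. Of the interval's H2 genes outside the members, H2-Ke6 was at 0.52 in the germline knockouts, with an unadjusted P of 0.037 in limma. H2-Ab1 was at 2.03 with an unadjusted P of 0.10 in limma, and H2-DMa at -0.01, and none of these passed both thresholds. In the inducible comparison 0 of all 52 genes tested in the interval passed. Its 45 genes that are neither members nor H2 genes had a median of -0.07 there, and 15 lay above 0.

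Y-linked counts split the germline libraries across genotypes, with wild-type replicate 2 and knockout replicates 1 and 2 at sums between 0 and 9.83 and the other 3 between 1376 and 4582. Among the libraries low in Y-linked genes, H2-K1 was at 143 in the wild type against 460 and 495 in the knockouts. Among those high in them it was at 117 and 172 against 204. H2-K1 was higher in the knockouts within both, and the difference was larger in the former, with too few libraries for a test within either.

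**Figure D5:**
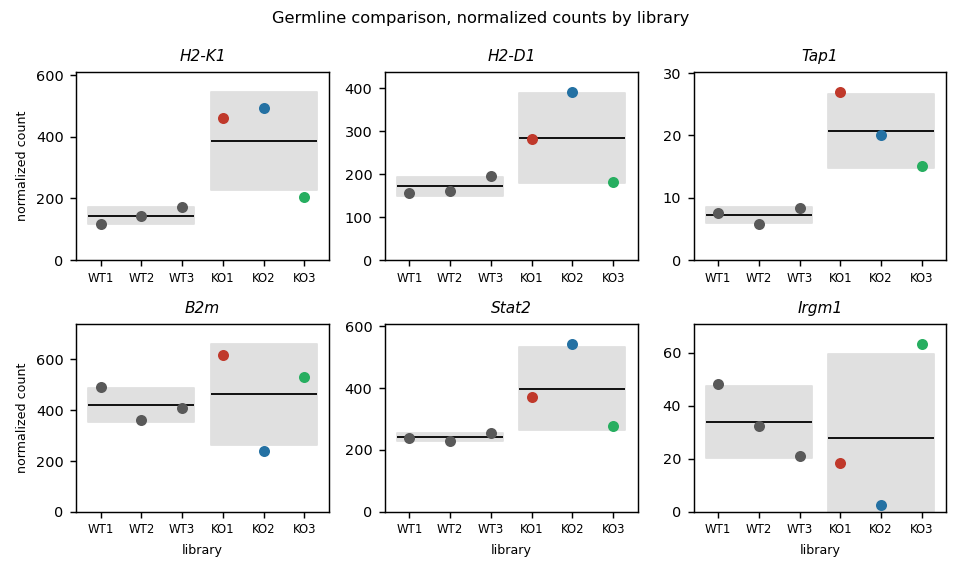
Normalized counts of 6 members in each library of the germline comparison, 3 wild-type (WT, grey) and 3 knockout (KO, coloured); lines are group means and shading spans 1 SD, on axes that start at 0. H2-K1, Tap1 and Stat2 are above the wild type in every knockout, and Irgm1 falls to 2.48 in KO2.

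Stat2 was the other germline member past the thresholds. It held 240, 230 and 255 normalized counts in wild-type tissue and 371, 543 and 278 in mutant tissue, a log2 fold change of 0.66 ± 0.25 (SE) without overlap. Leaving out any library other than knockout replicate 3 ended that call, with log2 fold changes between 0.41 and 0.89 over the 6 fits. Irf9 had a log2 fold change of 0.01. Of 55 further interferon-inducible genes, with H2-Q7 and H2-Q9 counted once, 3 passed in the germline knockouts, where 2.07% of all genes did, and all were H2 genes.

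The other roles held no member past the thresholds in the germline comparison, and the 2 most abundant members of each follow. Among the sensors, Ddx58 held 119, 81.6 and 75.9 normalized counts in wild-type tissue and 130, 44.2 and 105 in mutant tissue. Ifih1 held 46.2, 48.4 and 44.0 in wild-type tissue and 45.4, 10.6 and 55.3 in mutant tissue. In both, replicate 2 was the lowest library and the other knockouts were near the wild type.

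Among the effectors, Eif2ak2 held 277, 204 and 343 in wild-type tissue and 389, 184 and 395 in mutant tissue. Ifit2 held 189, 138 and 155 in wild-type tissue and 148, 84.0 and 163 in mutant tissue. Replicate 2 was again the lowest in each. The 9 effectors tested had log2 fold changes between -0.54 and 0.44. Ifit1, Ifit3, Oas1a, Oas2, Mx2, Rsad2 and Ifi44, of which Ifit1, Ifit3 and Oas1a rose in the inducible knockouts, were under the filter here, between 0 and 18.1. Of these Mx2 alone did not overlap, at 3.28, 2.31 and 6.19 in wild-type tissue and 10.6, 10.97 and 10.04 in mutant tissue.

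In the ISG15 system, Herc6 held 82.2, 63.9 and 81.6 in wild-type tissue and 101, 59.7 and 73.4 in mutant tissue, and Trim25 held 77.8, 78.0 and 86.4 against 84.9, 33.3 and 109. Trim30a was listed at 0 in knockout replicate 2 and lay between 13.4 and 34.2 in the other libraries. Of the PARP and nuclear body genes, Dtx3l held 205, 187 and 186 in wild-type tissue and 219, 141 and 170 in mutant tissue, and Parp9 held 137, 89.9 and 108 against 112, 75.0 and 127. All of these groups overlapped.

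The 3 GTPases tested had the lowest median of all roles in replicate 2, at -3.25 on the log2 scale. Gbp7 held 52.5, 38.8 and 32.1 in wild-type tissue and 41.8, 1.58 and 47.2 in mutant tissue. Irgm1 held 48.2, 32.4 and 20.9 in wild-type tissue and 18.3, 2.48 and 63.3 in mutant tissue. In both genes replicate 3 was at or above most wild-type libraries while replicate 2 was near the floor. Microglia and macrophage, endothelial, erythroid and cranial mesenchyme markers were also low in that library. Whether any of these bears on the GTPases was not tested. Ddx60, Zbp1, Usp18, Sp100, Gbp2, Gbp3 and Iigp1 were under the filter, between 0 and 21.1.

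Set side by side, 0 of the 31 members tested in both comparisons were past the thresholds in both. Over all 13737 genes tested in both, 2 were higher in both, 0.73% of the 274 higher in the germline and 2.22% of the 90 higher in the inducible knockouts, so few shared genes were found in either set. Each has its own wild-type libraries. Oas1a, Usp18, Ifit3 and Gbp3, among the members most changed in the inducible knockouts, were too low for testing in the germline table, and Irgm1 and Gbp7 had germline log2 fold changes of -1.02 and -1.24 with SEs of 1.01 and 1.09. H2-K1 was at 1.33 in germline knockouts and at 0.11 in inducible ones, Tap1 at 1.37 and 0.52, and Stat2 at 0.66 and -0.01. Whether these differences between the comparisons exceed their error was not tested, and each table was normalized alone.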

How the data were processed

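Poly(A) RNA libraries (TruSeq) were sequenced on an Illumina instrument. Reads were mapped by the authors with TopHat onto mm9 (1.2.0 in the submitters' processing notes, another version in the study's methods), tallied per gene over its RefSeq exons, each read once, and scaled with edgeR. Strandedness of the counting is not given in the sources used here. The deposited signal is a normalized count per gene and library, equalized within each table and not divided by length; since these are fractional, count models were not used. All per-sample columns were used (0 left out).

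Values were analysed as log2(normalized count + 1) with limma 3.58.1 in R 4.3.3 (two-sided, lmFit and eBayes with trend), over genes with a mean of at least 10, each table alone, with Benjamini-Hochberg adjustment over all genes tested. The steps were tested on simulated data with the same fixed spread in both groups. That spread was not taken from these libraries, so how the calls behave at their spread was not tested. A floor of 3 normalized counts was used for fold changes against near-absent wild-type values. The members, role groups and other gene lists were chosen with earlier results of these data known, so no test over a list is given. The interferon signalling list is not reported here. Values in every library are given for up to 4 members per role with the largest log2 fold change past the thresholds, or for the 2 most abundant where none passed. All libraries were grouped by their labels. The labels do not say that replicate numbers pair the libraries, so the main fit used no block. Gene positions are from GENCODE M1 on NCBIM37 (mm9), and upstream sequences are RefSeq on GRCm38.p6, searched with Python 3.11.15. Alternatives were pseudocounts of 0.5 and 5, no filter or a mean of at least 50, quantile normalization, no trend, array weights, a replicate block, each library left out and, added after the data were seen, a Y-linked covariate. Depth in reads is unknown, which limits precision for low counts.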

Additional observations from a re-analysis of the deposited data

Results flagged for a closer look

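For 2 members every germline knockout lay below the wild-type mean and every inducible knockout above it; the difference between the comparisons was not tested. Lgals3bp stood at a mean log2 difference of 0.83 in the inducible knockouts and -0.96 in the germline knockouts. Its germline groups overlapped, with knockout replicate 3 at 20.09 and the wild type between 19.28 and 24.95, and its unadjusted P there was 0.093 in limma. Oas2, under the mean of 10 in both tables, stood at 1.88 and -0.97, with levels of at most 13.7 normalized counts in any library. Its groups overlapped in both comparisons.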

How the results depend on the processing

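The inducible count of 16 members higher, of 40 tested, became 8 of 23 tested with a mean of at least 50, which removes members with few counts. Over all genes the higher count was 113 in the main fit and 39 with that filter. Without the mean-variance trend the inducible count of members was 10 of 40, beside 111 of all genes (the cause was not tested). With 1 library left out it ranged from 7 to 23. The germline count of 3 became 1 with the Y-linked covariate, which was added after the data were seen, and ranged from 1 to 4 with 1 library left out. Over all genes the germline higher count was 289 in the main fit and 110 with that covariate. The germline count of 0 lower became 1 without the trend and ranged from 0 to 1 with 1 library left out. The inducible count of 0 lower stayed 0 in all these fits. With a replicate block the counts were 23 inducible and 3 germline. Same-numbered libraries did not deviate together in the inducible table (correlations of -0.35 and -0.05). In the germline table the correlations were -0.12, 0.31 and 0.25 for replicates 1, 2 and 3. The labels do not say that the numbers are pairs, so they were not taken as such.

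The median log2 fold change of the members stayed between 0.46 and 0.88 in the inducible comparison. In the germline comparison it lay between -0.51 and 0.33 and was above 0 with a mean of at least 50 (0.01), quantile normalization (0.02), array weights (0.20) and the Y-linked covariate (0.12), so it has no firm sign. No member had an adjusted P under 0.05 in limma in any of these fits, the smallest among those past the thresholds being 0.09 for H2-K1. Leaving out an inducible wild-type library leaves 1, which is then assumed to vary like the knockouts. Small groups and low counts limit what can be detected.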
